A study of Homo sapiens with 8 samples.

Results

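Wide domains are the stretches of chromatin that a broad peak of HP1a or HP1b covered without a break for 4 kb or more. They were chosen by the listed width of the peak: in each of 8 lists the peaks on chromosomes 1 to 22 of at least 4000 bases were taken, and those that overlapped between lists were merged. This gave 2410 domains from 3210 wide peaks, of 1087904 listed peaks in all. The domains spanned 14.4 Mb, 0.500% of the autosomes, with a median width of 4951.5 bases (quartiles 4368 and 6095). Because the width in every library chose the domains, the numbers of wide peaks and the covered shares below are a description and carry no test, except where the domains were built from lists of other libraries than those compared.

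The cells were MCF10A, a non-tumorigenic line of human breast epithelial cells. HP1a (encoded by CBX5) was mapped by ChIP-seq of formaldehyde-fixed cells in a knockdown of HP1b (encoded by CBX1) and in wild type, and HP1b was mapped in a knockdown of HP1a and in wild type, with 2 libraries in each of the 4 groups. How the knockdowns were made, and whether replicates came from separate cultures, is not given in the labels, so p-values measure only the spread between these libraries, which may be technical. The lists hold no RNA or protein levels and do not check the knockdowns. They hold no read counts either, so depth is unknown, and a place without a listed peak is not shown to lack the protein.

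HP1 proteins bind nucleosomes that carry histone H3 methylated at lysine 9, through the chromodomain, and pair with each other through the chromoshadow domain. Chromatin of this kind can extend along a chromosome as a continuous block, over satellite repeats near centromeres and over arrays of genes that encode C2H2 zinc finger proteins, the largest family of human DNA-binding repressors, many of them on chromosome 19. HP1a and HP1b are paralogs with overlapping sites.

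Sequences from the starts of genes are shown first because few genes had their start inside a wide domain, and in zinc finger genes the domains mostly began past it. Of 15100 protein-coding genes with a RefSeq promoter window (250 bases before to 50 after the start, GRCh38.p14), 30 had the window wholly inside a domain. The windows below are those in domains that were wide in at least 3 libraries and the only other one covered whole in 4 libraries, each written 5′ to 3′ on the gene's strand, with CG dinucleotides in capitals. ZNF454 (chr5:178940948-178941247, plus strand) and ZNF134 (chr19:57613992-57614291, plus strand) encode zinc finger proteins, and MSANTD5 (chr5:178697712-178698011, minus strand) and SMIM35 (chr11:118086914-118087213, minus strand) are other protein-coding genes.
ZNF454: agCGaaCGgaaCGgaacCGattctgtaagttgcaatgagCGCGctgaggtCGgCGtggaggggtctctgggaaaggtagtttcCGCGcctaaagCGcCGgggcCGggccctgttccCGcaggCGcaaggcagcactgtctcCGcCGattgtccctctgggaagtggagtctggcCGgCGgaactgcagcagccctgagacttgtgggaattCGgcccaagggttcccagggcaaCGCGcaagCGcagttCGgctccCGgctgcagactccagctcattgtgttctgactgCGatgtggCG
ZNF134: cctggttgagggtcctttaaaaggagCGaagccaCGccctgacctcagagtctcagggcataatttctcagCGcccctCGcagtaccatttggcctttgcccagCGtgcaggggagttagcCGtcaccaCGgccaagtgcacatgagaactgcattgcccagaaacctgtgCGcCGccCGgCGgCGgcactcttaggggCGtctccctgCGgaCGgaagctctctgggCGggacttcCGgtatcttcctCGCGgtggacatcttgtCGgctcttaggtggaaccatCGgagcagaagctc
MSANTD5: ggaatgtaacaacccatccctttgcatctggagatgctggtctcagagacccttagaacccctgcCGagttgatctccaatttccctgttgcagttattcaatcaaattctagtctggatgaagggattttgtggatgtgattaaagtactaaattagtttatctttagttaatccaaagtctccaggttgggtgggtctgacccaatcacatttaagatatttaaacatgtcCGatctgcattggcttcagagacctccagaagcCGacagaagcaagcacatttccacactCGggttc
SMIM35: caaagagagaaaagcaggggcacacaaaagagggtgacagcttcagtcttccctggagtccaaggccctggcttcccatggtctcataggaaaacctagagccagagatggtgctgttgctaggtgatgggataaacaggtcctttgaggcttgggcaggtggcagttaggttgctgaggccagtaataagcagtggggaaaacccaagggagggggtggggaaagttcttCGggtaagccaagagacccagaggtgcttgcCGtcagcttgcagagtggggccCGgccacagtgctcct

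ZNF454 and ZNF134 had 27 and 21 CG dinucleotides in the window, and MSANTD5 and SMIM35 had 4 and 3. The CG-rich ZNF454 window was covered in 1 library, HP1b with HP1a knocked down replicate 2, although its domain was wide in 4. The ZNF134 window was covered whole in wild-type HP1b replicate 1 and in part in 2 other libraries (47.7% in wild-type HP1a replicate 2 and 29.3% in HP1b with HP1a knocked down replicate 1). The MSANTD5 window was covered whole in both wild-type HP1b libraries and had no peak in the other 6. The SMIM35 window was covered whole in both HP1b libraries of the HP1a knockdown, in wild-type HP1b replicate 2 and in wild-type HP1a replicate 1. The 30 windows inside domains had a median of 9 CG dinucleotides and a GC content of 56.2%, and all 15100 windows had 22 and 63.0%. At least 1 CG was present in 96.7% of the 30 and in 98.1% of all.

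Of 1461 autosomal miRNA hairpins, 8 met a domain (0.548%), and their 13 mature forms had 13 different seeds. Shown here with the seed (bases 2 to 8) in capitals are the miRNA in the domain wide in the most libraries and a pair from the miRNA cluster of chromosome 19, which is known for expression in placenta.
hsa-miR-6760-5p: cAGGGAGAagguggaagugcaga
hsa-miR-517c-3p: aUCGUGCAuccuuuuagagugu
hsa-miR-520h: aCAAAGUGcuucccuuuagagu
The MIR6760 domain (chr12:111302950-111308754) was covered to 74.3 and 100% by HP1b in the HP1a knockdown and to 69.5 and 48.8% in wild type. The domain that holds MIR517C and MIR520H (chr19:53739881-53744145) was covered whole by HP1b in the HP1a knockdown replicate 2 and had no HP1b peak in replicate 1 or in either wild-type library, so it rests on 1 library. The other 5 hairpins lay in domains wide in 1 library each.

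Nearly all wide peaks were of HP1b, and most were listed in the HP1a knockdown. HP1a had 1 and 2 wide peaks in the HP1b knockdown and 46 and 37 in wild type. HP1b had 789 and 1401 in the HP1a knockdown and 490 and 444 in wild type. Both knockdown libraries of HP1a lay below both wild-type ones, and both knockdown libraries of HP1b lay above, while the 2 knockdown libraries of HP1b differed by more than the wild-type ones did. Per 1000 listed peaks these were 0.0536 and 0.111 for HP1a in the HP1b knockdown, 0.361 and 0.338 in wild type, 5.28 and 6.57 for HP1b in the HP1a knockdown, and 2.18 and 1.96 in wild type. The lists themselves differed in length, with 18364.5 ± 415 peaks for HP1a in the HP1b knockdown, 118374 ± 12768 in wild type, 181274 ± 45031 for HP1b in the HP1a knockdown and 225940 ± 1167 in wild type (SD, n = 2 each). The weakest peak listed for HP1a had a −log10 p of 3.43 in both HP1b-knockdown libraries and of 2.75 and 2.80 in wild type, and the part of this difference in the numbers of wide peaks was not tested.

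Wide peaks were only slightly stronger than narrower ones. Their median fold enrichment, the authors' value for each peak over local background, was 3.01 and 3.12 for HP1b in the HP1a knockdown, beside 2.79 and 2.78 for narrower peaks of the same lists, and 3.22 and 3.38 in wild type, beside 2.92 and 3.03. The widest single peaks reached 18740 and 204265 bases for HP1b in the HP1a knockdown and 23180 and 92999 bases in wild type. For HP1a they reached 6100 and 4888 bases in the HP1b knockdown and 14078 and 35679 bases in wild type. Widths passed through the 4 kb bound without a gap: 273 peaks were 4000 to 4099 bases wide and 309 were 3900 to 3999. The peaks just inside were 4001 bases wide, with fold enrichments of 3.01 to 3.07, and those just outside 3999 bases, with 2.73 to 3.10.

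Across all 2410 domains, HP1a covered 6.06 and 6.61% of bases in the HP1b knockdown and 17.4 and 17.02% in wild type. HP1b covered 58.5 and 76.7% in the HP1a knockdown and 44.1 and 45.2% in wild type. The covered share of the autosomes as a whole was 0.328 and 0.320% for HP1a in the HP1b knockdown, 2.32 and 1.99% in wild type, 3.87 and 5.43% for HP1b in the HP1a knockdown and 5.18 and 5.17% in wild type. Most domains were not private to a library in the sense of bare coverage: 345 had a peak in all 8 libraries and 1656 in 6 or more. A peak in at least 1 library follows from the choice. How many other autosomal stretches of like width had a peak in as many libraries was not counted. These numbers are thus not shown to be particular to the domains. As unbroken wide peaks the domains were far less shared. Of the 2410, 1905 (79.0%) were wide in 1 library, 361 in 2, 94 in 3, 39 in 4, 7 in 5 and 4 in 6, and none was wide in 7 or 8. By antibody, 2338 were wide for HP1b alone, 24 for HP1a alone and 48 for both.

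**Figure D1:**
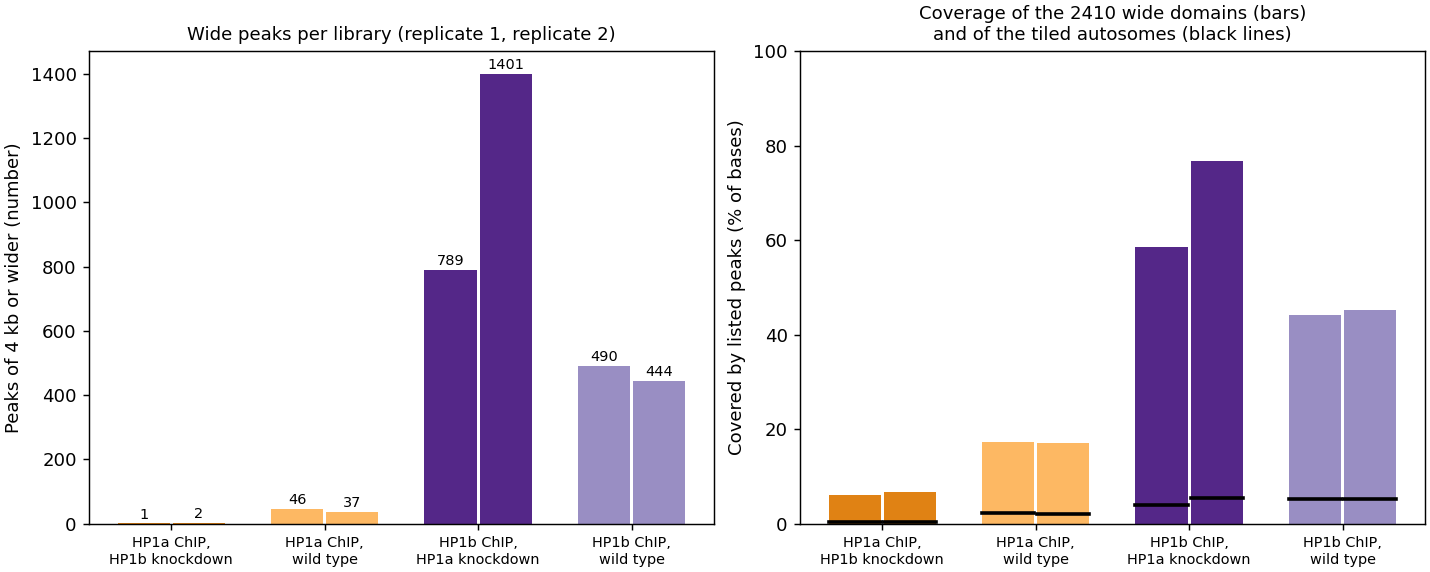
Number of peaks of 4 kb or wider in each library (left) and share of the bases of the 2410 wide domains covered by listed peaks (right), with bars for replicates 1 and 2 of each group and black lines for the covered share of the autosomes. HP1b in the HP1a knockdown had 789 and 1401 wide peaks and covered 58.5 and 76.7% of the domains, above the other groups in both panels.

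A domain chosen in 1 replicate can be read in the other, which the choice did not use. The 789 domains of HP1b in the HP1a knockdown replicate 1 were covered to 67.2% in replicate 2, and 297 of them met a wide peak there. The 1401 domains of replicate 2 were covered to 52.3% in replicate 1, and 288 met a wide peak. For wild-type HP1b the covered shares were 62.2% (490 domains of replicate 1 read in replicate 2) and 59.2% (444 read the other way), and for wild-type HP1a 54.5% (46 domains) and 46.4% (37 domains). The replicate thus covered most bases of HP1b domains in both directions, but between 20.6 and 37.6% of them were again a single wide peak. The 3 domains of HP1a in the HP1b knockdown were covered to 23.9% (1 domain) and 20.5% (2 domains) in the other replicate, and none was wide there.

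The 4 domains wide in 6 libraries, all but those of HP1a in the HP1b knockdown, were a pair over ZNF678 on chromosome 1, a domain over ZNF16 on chromosome 8 and a stretch of chromosome 19 with no annotated gene (chr19:27757668-27780028). ZNF678 and ZNF16 encode C2H2 zinc finger proteins. The larger ZNF678 domain (chr1:227624416-227645354) was covered by HP1a to 27.5 and 19.5% in the HP1b knockdown and to 82.6 and 88.2% in wild type, and by HP1b to 92.2 and 94.2% in the HP1a knockdown and to 99.7 and 95.1% in wild type. The ZNF16 domain (chr8:144926789-144938075) was covered by HP1a to 19.7 and 5.05% in the HP1b knockdown and to 63.2 and 64.9% in wild type, and by HP1b to between 89.8 and 99.9% in the 4 HP1b libraries. In both genes HP1a was lower in each HP1b-knockdown library than in each wild-type library, and HP1b stayed near complete. The choice of domains wide in these 6 libraries favours this pattern, which is a description only. The chromosome 19 stretch differed in that neither HP1a library of the HP1b knockdown listed a peak in it, against 80.3 and 54.3% covered by HP1a in wild type. HP1b covered it to 62.6 and 75.6% in the HP1a knockdown and to 89.9 and 83.4% in wild type.

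The imprinted SNORD116 array was the widest domain shared by 5 libraries. This 40.3 kb domain (chr15:25052033-25092334) lies in SNHG14, the host transcript of small nucleolar RNA arrays in the region lost in Prader-Willi syndrome. HP1b covered it to 73.5 and 89.6% in the HP1a knockdown and to 84.2 and 85.9% in wild type, and HP1a to 11.2 and 9.34% in the HP1b knockdown and to 55.2 and 39.9% in wild type. In all, 22 of 30 SNORD116 genes and 30 of 48 SNORD115 genes met a domain, against 1 of 281 others. A 26.6 kb domain over the SNORD115 array was wide in HP1b of the HP1a knockdown replicate 2 alone. Copies within each array are near identical, and how reads that fit several copies were placed is not given in the sources used here, so coverage of single copies is uncertain.

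Other domains wide in 5 libraries lay over ZNF251, ZNF354B, ZNF549 and SUSD4 and in stretches of chromosomes 1 and 16 without a protein-coding gene. SUSD4 encodes a membrane protein that regulates complement. Its domain (chr1:223213184-223222604) had no HP1a peak in the HP1b knockdown and was covered by HP1a to 16.8 and 43.3% in wild type, and by HP1b to 54.5 and 57.8% in the HP1a knockdown and to 68.5 and 62.2% in wild type.

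The widest domains were of a different kind, and several rested on 1 library. The widest, 210.8 kb of chromosome 22 (chr22:11970237-12181065), was covered to 98.4% by HP1b in the HP1a knockdown replicate 2 and to between 0.781 and 13.4% in the other 7 libraries. The next, 93.0 kb over TPPP and ZDHHC11B on chromosome 5, was a single peak of wild-type HP1b replicate 2 and was covered to at most 0.491% elsewhere. A 35.7 kb domain of chromosome 20, wide in 4 libraries, was covered whole by wild-type HP1a replicate 2 and to 11.9% in replicate 1. HP1b covered it to 20.3 and 22.4% in the HP1a knockdown and to 31.9 and 36.1% in wild type. A 33.0 kb domain with OR7E olfactory receptor pseudogenes on chromosome 12 was covered whole by HP1b in the HP1a knockdown replicate 2 and had no peak in any other library. A 29.9 kb domain with OR7E pseudogenes on chromosome 4 was covered to 7.50 and 100% by HP1b in the HP1a knockdown and to 2.64 and 91.8% in wild type, so the replicates differed within both groups. A 23.2 kb domain over GSTM1 and GSTM2, genes of glutathione conjugation, was covered whole by wild-type HP1b replicate 1 and to at most 12.1% elsewhere. Several of these places hold near-identical copies, for which the same uncertainty holds.

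The widest domain that was alike in both replicates lay in COL22A1, which encodes a collagen of tissue junctions. This 41.4 kb domain (chr8:138848394-138889823) was covered by HP1b to 90.6 and 91.3% in the HP1a knockdown and to 48.2 and 44.5% in wild type, and by HP1a to 7.83 and 15.1% in the HP1b knockdown and to 21.1 and 21.2% in wild type. A 31.1 kb domain in ADAMTS2, which encodes a procollagen-processing protease, was covered by HP1b to 86.8 and 92.9% in the HP1a knockdown and to 37.6 and 42.4% in wild type. In HP1a ChIP the same ADAMTS2 domain was covered to 24.97 and 17.6% in the HP1b knockdown and to 21.1 and 10.9% in wild type, and the groups overlapped. A pair of wide domains of chromosome 8 lay outside protein-coding genes. The 31.7 kb one (chr8:142116996-142148680) was covered by HP1b to 63.2 and 97.6% in the HP1a knockdown and to 22.8 and 32.2% in wild type, and by HP1a to 23.3 and 25.3% in the HP1b knockdown and to 6.89 and 8.79% in wild type. It was thus more covered in both knockdown libraries of each antibody than in either wild-type library, while HP1a lists were shorter in the HP1b knockdown. Only knockdown libraries of both antibodies had a wide peak in this domain, so the choice itself favours higher coverage there. The 31.8 kb one (chr8:141916927-141948722) was covered by HP1b to 77.1 and 100% in the HP1a knockdown and to 26.9 and 28.4% in wild type, and by HP1a to 26.8 and 11.6% in the HP1b knockdown and to 13.0 and 10.4% in wild type, where the HP1a groups overlapped.

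**Figure D2:**
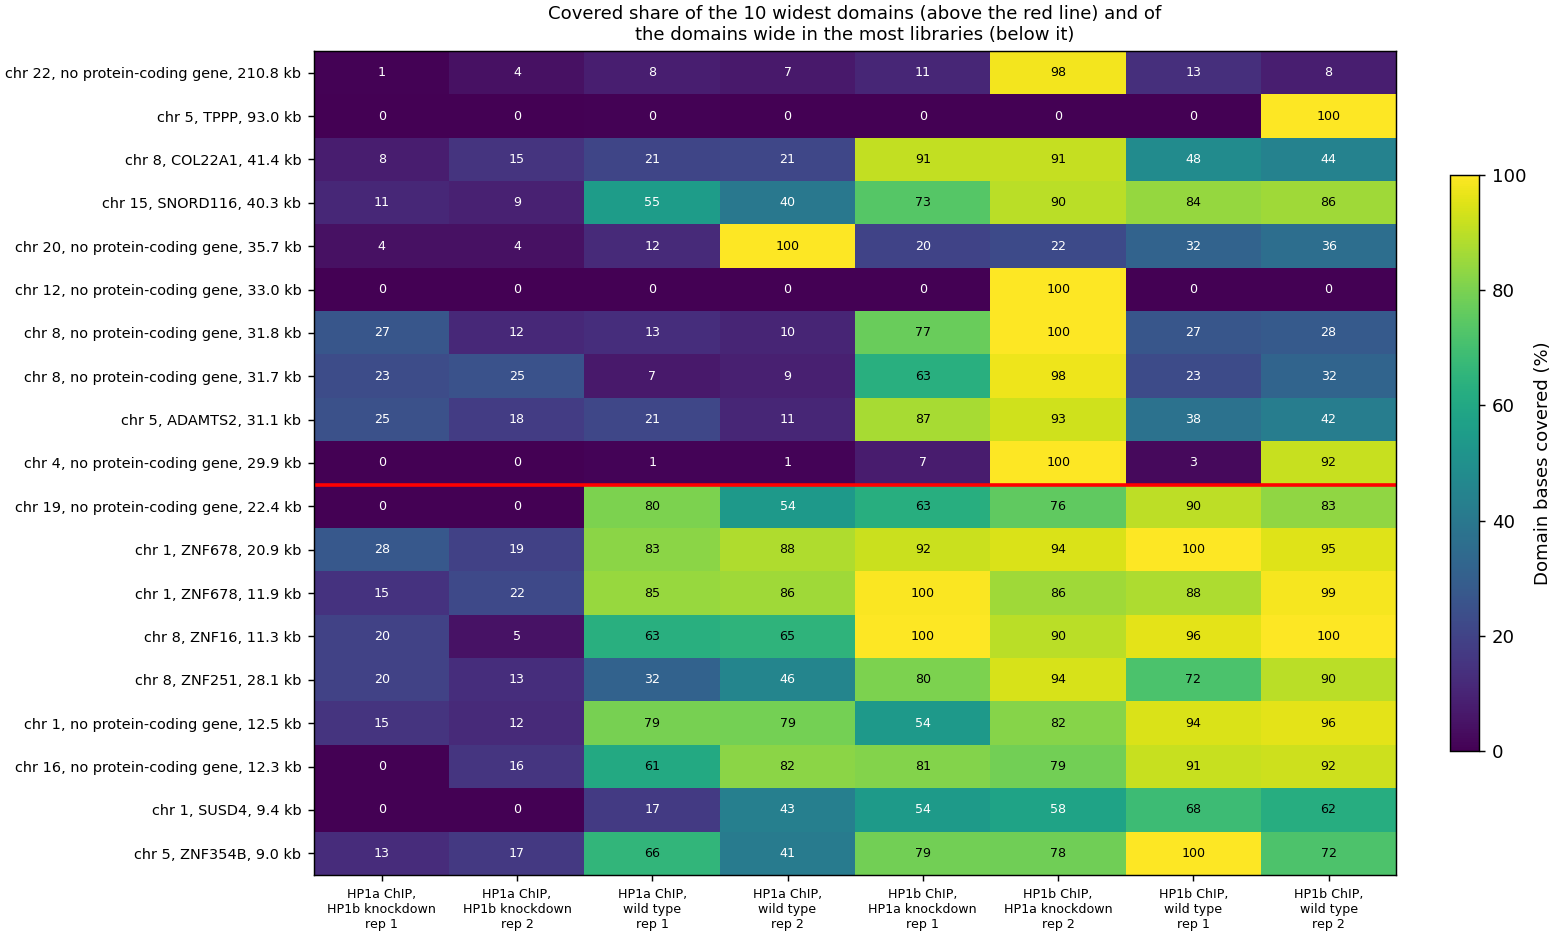
Share of bases covered (percent, colour and number) in each of the 8 libraries for the 10 widest domains, above the red line, and for the domains wide in the most libraries, below it (the SNORD116 domain belongs to both and is drawn once). The widest domains of chromosomes 22, 5 and 12 were near complete in 1 library, and HP1b covered the ZNF678 and ZNF16 domains to between 85.6 and 99.9% in all 4 of its libraries.

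Chromosome 19 held 406 domains (16.8% of them) and 3.35% of all listed peaks. Wide peaks per 1000 listed peaks on this chromosome were 17.7 and 32.6 for HP1b in the HP1a knockdown and 13.5 and 12.7 in wild type, and 1.45 and 1.01 for wild-type HP1a. Chromosome 18 was lowest in 3 of the 4 HP1b libraries, with 2.57 and 1.24 in the HP1a knockdown and 0.488 and 0.322 in wild type, but in the knockdown replicate 1 other chromosomes were lower, among them chromosome 4 with 1.72. Domains lay close together: 1381 of 2410 were within 50 kb of another. The 4 segments of 5 Mb with the most domains were on chromosomes 19 (50 to 55 Mb, 78 domains, 42 of them over a zinc finger gene), 8 (135 to 140 Mb, 71 domains), 11 (130 to 135 Mb, 65 domains) and again 19 (20 to 25 Mb, 65 domains, 19 of them over a zinc finger gene). Domains of the chromosome 19 segment were covered by HP1b to 57.4 and 78.5% in the HP1a knockdown and to 50.8 and 56.6% in wild type. In the second chromosome 19 segment (20 to 25 Mb) HP1b covered 61.2 and 70.4% in the HP1a knockdown and 61.6 and 61.1% in wild type, and the groups overlapped. HP1a covered 4.47 and 4.92% of that segment's domains in the HP1b knockdown and 20.5 and 20.2% in wild type.

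The chromosome 11 segment held 23 and 49 wide HP1b peaks in the HP1a knockdown and none in wild type. Its domains were covered by HP1b to 66.4 and 87.3% in the HP1a knockdown and to 13.9 and 14.3% in wild type. Only HP1b libraries of the HP1a knockdown had a wide peak in them, so the choice itself favours higher HP1b coverage in that knockdown. HP1a, whose lists did not choose these domains, covered them to 5.24 and 3.78% in the HP1b knockdown and to 2.26 and 2.58% in wild type, so both knockdown libraries lay above both wild-type libraries although their lists were several-fold shorter. In the chromosome 8 segment HP1a covered 11.8 and 16.0% in the HP1b knockdown and 20.8 and 22.3% in wild type. These segments were picked for their number of domains after the values were known, and no test was made of them.

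**Figure D3:**
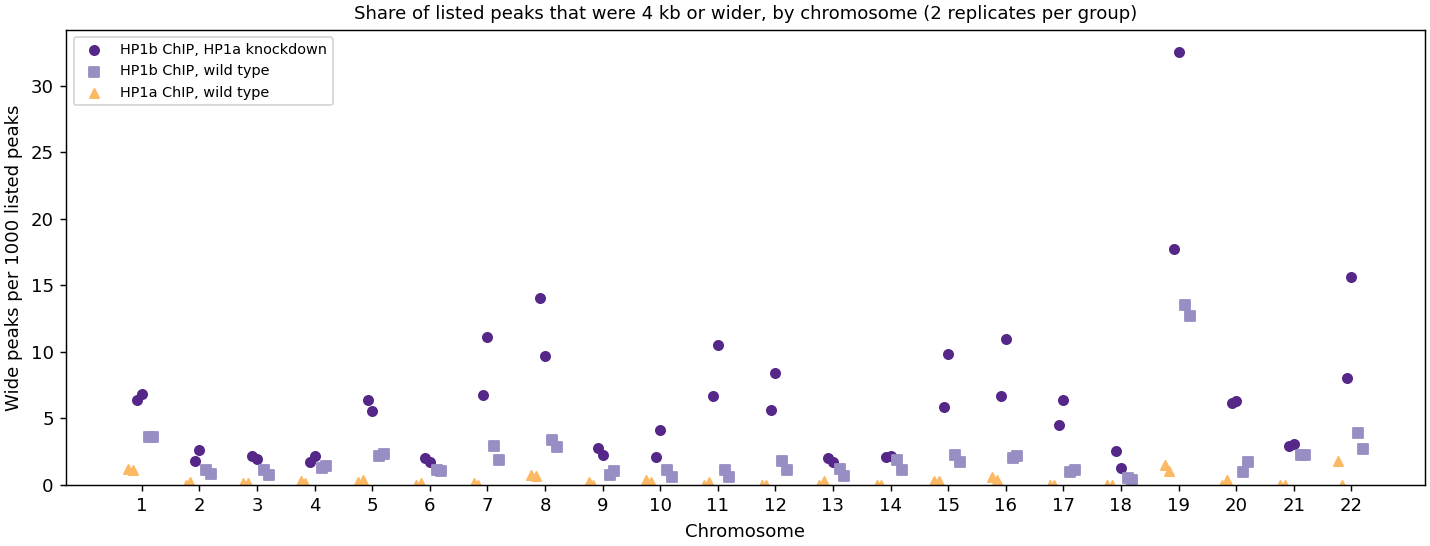
Wide peaks per 1000 listed peaks on each autosome, with circles for HP1b in the HP1a knockdown, squares for HP1b in wild type and triangles for HP1a in wild type, 2 points per group. Chromosome 19 stood highest for HP1b, at 17.7 and 32.6 in the HP1a knockdown and 13.5 and 12.7 in wild type.

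Protein-coding genes met by a domain numbered 546 of 19122 (2.86%). Zinc finger genes were taken throughout by symbol (ZNF, ZFP, ZSCAN or ZKSCAN and a number), so any with other names count as other genes. C2H2 zinc finger genes were met far more often, 169 of 544 (31.1%): 107 of 258 on chromosome 19 (41.5%) and 62 of 286 elsewhere (21.7%), while 43 of 1193 other genes of chromosome 19 were met (3.60%). Among genes that span large fragile sites 7 of 19 were met, and among brain genes 3 of 19 (RBFOX1, MYT1L and CNTNAP2), all of which are long. No domain met any of 53 clustered protocadherin, 55 keratin, 39 HOX, 69 histone, 74 ribosomal protein, 22 mesenchymal, 37 TGF-beta and BMP pathway, 21 heterochromatin and lamina, 19 cohesin, condensin and CTCF, 19 interferon and antiviral or 14 liver genes. Olfactory receptor genes were met in 5 of 389 cases, potassium channel genes in 4 of 93, collagen chain genes in 1 of 42 (COL22A1), epithelial and basal genes in 1 of 22 (PKP1, a desmosome gene) and luminal breast genes in 1 of 13 (ESR1, the oestrogen receptor). CBX1, CBX3 and CBX5 were not met, and their nearest domains lay 1081, 2355 and 1090 kb away.

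In covered share, the HP1b libraries of the 2 genotypes overlapped in domains over zinc finger genes, and in the other classes both HP1a-knockdown libraries lay above both wild-type libraries. Relative to autosomal coverage the zinc finger domains did not stand apart in this way, with ratios of 16.9 and 13.7 in the HP1a knockdown and 12.7 and 13.0 in wild type. The 254 domains over such genes were covered by HP1b to 65.5 and 74.3% in the HP1a knockdown and to 65.8 and 67.1% in wild type. The 728 domains over other protein-coding genes were covered to 59.1 and 77.5% in the HP1a knockdown and to 37.5 and 40.4% in wild type, and the 1428 domains outside protein-coding genes to 56.9 and 76.7% and to 43.3 and 43.5%, in the same order. The choice of domains favours this contrast between classes, which is a description only. Over zinc finger genes 85 and 119 domains were wide for HP1b in the HP1a knockdown and 96 and 93 in wild type. Over other protein-coding genes 231 and 452 were wide in the HP1a knockdown and 100 and 104 in wild type. Outside protein-coding genes these numbers were 440 and 804 in the HP1a knockdown and 283 and 235 in wild type. By share of the gene body inside domains the leading zinc finger genes were ZNF416 (87.5%), ZNF134 (84.7%) and ZNF845 (83.6%), all on chromosome 19. ZNF416 was covered by HP1b to 68.8 and 87.5% in the HP1a knockdown and to 79.0 and 56.9% in wild type, and the groups overlapped. ZNF845 was covered to 38.6 and 53.9% in the HP1a knockdown and to 60.9 and 63.4% in wild type. ZNF134 was covered by HP1b to 66.9 and 59.6% in the HP1a knockdown and to 88.4 and 79.7% in wild type, so that in ZNF845 and ZNF134 both knockdown libraries were lower. PKP1 was covered by HP1b to 2.11 and 8.94% in the HP1a knockdown and to 21.3 and 31.4% in wild type, and by HP1a to 0 and 3.64% in the HP1b knockdown and to 16.4 and 13.7% in wild type.

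Within zinc finger genes the domains began past the start. Over 148 such genes with a known strand, domains covered 11.6% of the first of 10 equal parts of the gene, 37.8% of the fourth and 27.5% of the last. HP1b peaks of any width followed, with 15.2 and 24.9% of the first part in the HP1a knockdown and 16.3 and 15.4% in wild type, and 40.0 and 43.5% of the fourth part in the HP1a knockdown and 41.5 and 43.3% in wild type. In 289 other genes met by a domain the domain share varied between 8.66 and 13.8% over the 10 parts, without such a step. Promoter windows of zinc finger genes lay wholly inside a domain in 11 of 460 cases, a larger share than the 30 of 15100 among all genes.

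**Figure D4:**
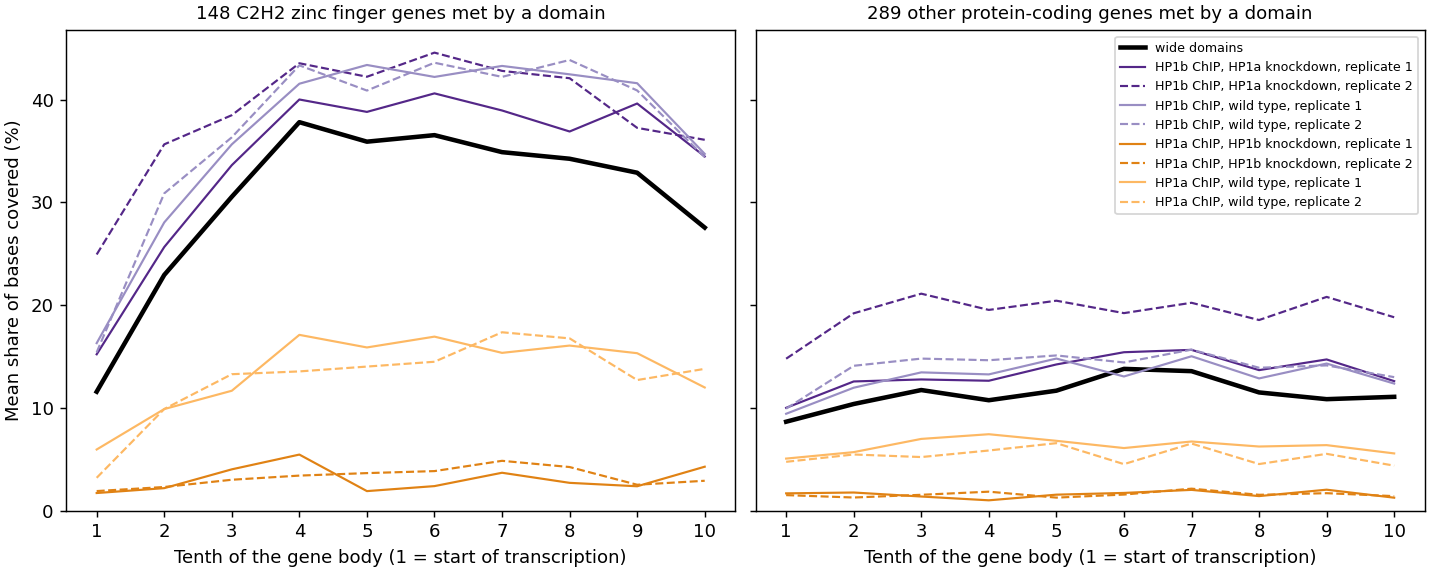
Mean share of bases covered (percent) in each of 10 equal parts of the gene body, from the start of transcription, for 148 zinc finger genes (left) and 289 other protein-coding genes (right) that a wide domain met, with a black line for the domains and coloured lines for each library. In zinc finger genes the domain share was 11.6% in the first part and 37.8% in the fourth, and in other genes it stayed between 8.66 and 13.8%.

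None of the 15 genes with the most bases in domains was a zinc finger gene, and ranking by bases favours long genes. It also favours genes more covered by HP1b in the HP1a knockdown, because 1600 of the 2410 domains were wide only there. COL22A1 led, with 249 of 326 kb in 21 domains (76.6%). Its whole body was covered by HP1b to 78.5 and 77.7% in the HP1a knockdown and to 42.9 and 41.8% in wild type, with 25 and 21 wide peaks in the knockdown and 3 and 2 in wild type. HP1a covered COL22A1 to 13.3 and 15.1% in the HP1b knockdown and to 21.0 and 19.95% in wild type. ADAMTS2 (68.3% inside 12 domains) was covered by HP1b to 68.8 and 78.6% in the HP1a knockdown and to 29.0 and 33.2% in wild type.

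SHANK2, NTM, NTRK3 and RBFOX1 had no or 1 wide HP1b peak per wild-type library. SHANK2, a scaffold of the postsynaptic density, had 4 and 24 wide HP1b peaks in the HP1a knockdown and none in wild type, and was covered to 31.7 and 50.4% and to 10.96 and 12.7%, in the same order. NTM, which encodes the adhesion protein neurotrimin, had 12 and 15 wide HP1b peaks in the HP1a knockdown and none in wild type, and was covered to 41.6 and 40.6% in the knockdown and to 9.49 and 8.38% in wild type. NTRK3, the receptor of neurotrophin-3, was covered by HP1b to 43.6 and 49.0% in the HP1a knockdown and to 16.2 and 13.1% in wild type. RBFOX1, a neuronal splicing regulator, held 30 domains and was covered by HP1b to 31.2 and 32.5% in the HP1a knockdown and to 19.7 and 18.9% in wild type. In each of these genes both knockdown libraries were higher than both wild-type libraries, a direction that the ranking by domain bases favours. FAM135B, CALN1, XYLT1, OPCML, TMEM132C, PTPRT, DPP6 and ASIC2 stood the same way round, FAM135B with 16 and 13 wide HP1b peaks in the HP1a knockdown and 3 and 2 in wild type, and ZDHHC11B, also among the 15 genes with the most domain bases, stood apart because it rested on 1 library.

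Whether HP1a changed in wide domains when HP1b was knocked down was asked in the 2387 domains built from HP1b lists alone, which the HP1a libraries did not choose. HP1a covered less of them in the HP1b knockdown, but it lost less there than on the autosomes as a whole, so that a larger part of what it still covered lay in them. The covered share was 6.11 and 6.68% in the HP1b knockdown and 17.03 and 16.4% in wild type, a difference of -10.3 percentage points (6.40 ± 0.403% and 16.7 ± 0.472%, SD, n = 2 each). Domains held 9.22 and 10.3% of all HP1a-covered bases in the HP1b knockdown and 3.63 and 4.06% in wild type. The ratio of domain coverage to autosomal coverage was 18.7 and 20.9 in the HP1b knockdown and 7.36 and 8.21 in wild type. The groups did not overlap in any of the 3 measures, and the exact permutation test (two-sided) gave p = 0.333 for each, the smallest that 2 against 2 libraries allow. When an equal number of peaks per library was used, the covered share was higher in the HP1b knockdown, by 1.75 percentage points, and the share of all HP1a-covered bases was higher by 1.35 points, against 5.93 with all peaks. With only peaks of −log10 q of at least 2 that share was higher by 0.232 points and the groups overlapped (exact permutation p = 0.667).

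The concentration of HP1a in the domains fell off with distance. In the 5 kb next to a domain the ratio to autosomal coverage was 6.55 and 7.10 in the HP1b knockdown and 2.81 and 2.96 in wild type, and at 200 to 500 kb it was 1.83 and 1.85 in the HP1b knockdown and 1.46 and 1.42 in wild type. Domains over zinc finger genes had ratios of 21.2 and 22.9 in the HP1b knockdown and 11.7 and 13.1 in wild type, and the other domains 18.3 and 20.7 in the HP1b knockdown and 6.80 and 7.57 in wild type.

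**Figure D5:**
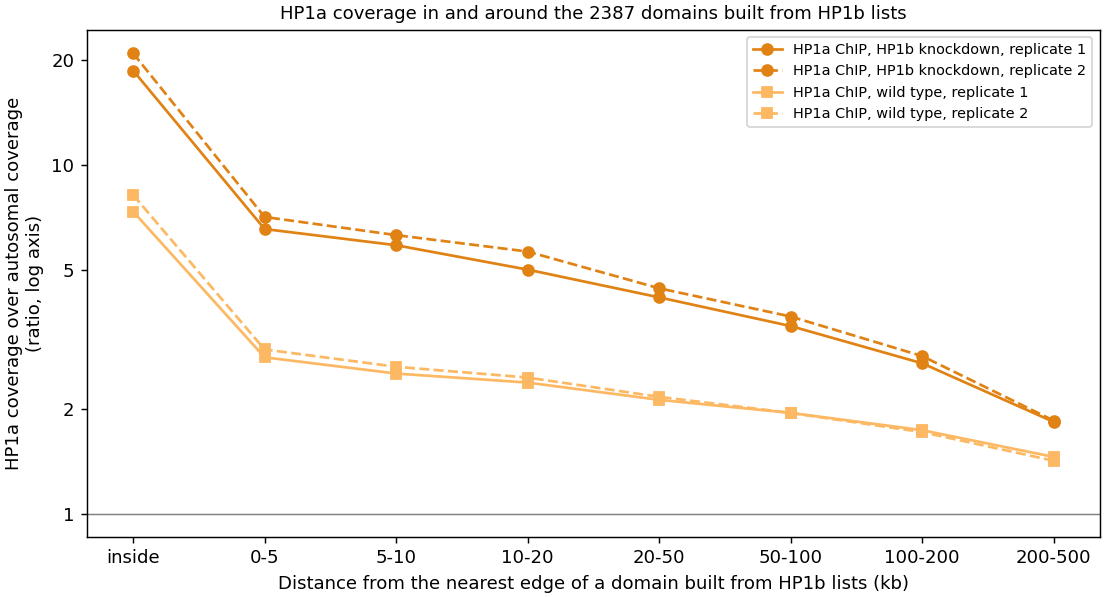
Ratio of HP1a coverage to HP1a coverage of the autosomes (log axis) inside the 2387 domains built from HP1b lists and at increasing distance from their edges (kb), with circles for the HP1b knockdown and squares for wild type, 1 line per library. Inside the domains the ratio was 18.7 and 20.9 in the HP1b knockdown and 7.36 and 8.21 in wild type, and the lines approached each other at 200 to 500 kb.

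Single domains were tested through the 10 kb window at their midpoint, in a limma fit over all 59292 windows with an HP1a peak in at least 2 of the 4 libraries, on log2 of covered bases per Mb of all covered bases plus a pseudocount of 2.92. Of the 2387 domains 1989 had such a window. At a Benjamini-Hochberg adjusted p under 0.05, 171 of them (8.60%) were higher in the HP1b knockdown, beside 1.71% of all windows. Another 353 (17.7%) were lower, beside 45.0% of all windows. Of the 59292 windows, 37079 had HP1a peaks in both wild-type libraries and none in the HP1b knockdown, so they could not be called higher. This lowers the 1.71%, and how many domains were barred in the same way was not counted. All 353 were windows with no HP1a peak in either HP1b-knockdown library, which passed the filter only through wild type, so their number is no support for a fall. The median log2 difference was 0.25 in domains and -1.56 in all windows, and without scaling for total coverage it was -1.30 in domains. No domain was called in either direction when peak numbers were made equal or with no filter. Without HP1a replicate 1 or 2 of the HP1b knockdown, 389 and 323 domains were called higher and 180 and 165 lower. Without wild-type HP1a replicate 1 or 2, 81 and 97 were called higher and none lower. Without HP1b replicate 2 of the HP1a knockdown, which changes the set of domains, 95 were called higher and the median log2 difference was -0.27.

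The 5 strongest rises had HP1a peaks in all 4 libraries and lay on chromosomes 10, 8 and 5. The domain in COL22A1 (chr8:138593965-138618485) had 28.0 and 19.8% of its 10 kb midpoint window covered by HP1a in the HP1b knockdown and 15.7 and 12.5% in wild type, a log2 difference of 3.32 ± 0.23 (SE) relative to total coverage with limma's adjusted p = 0.0181. Over the whole 24.5 kb of this domain HP1a covered less in the HP1b knockdown, 13.96 and 12.2% against 22.6 and 16.4% in wild type. These shares are not scaled by total coverage. HP1a covered 0.328 and 0.320% of the autosomes in the HP1b knockdown and 2.32 and 1.99% in wild type. The log2 difference of the whole domain relative to total coverage was not computed. A domain of chromosome 8 without a protein-coding gene (chr8:142019595-142027588) had 22.8 and 26.6% of its window covered in the HP1b knockdown and 8.09 and 9.99% in wild type, a log2 difference of 3.94 ± 0.28 with adjusted p = 0.0181 by limma, and over the whole domain HP1a covered 28.5 and 33.3% in the HP1b knockdown and 6.74 and 12.5% in wild type. The domain on chromosome 10 (chr10:133652220-133657036) had 27.1 and 28.8% covered in the HP1b knockdown and 29.3 and 20.7% in wild type, so its rise (2.82 ± 0.13) was relative to total coverage, and the groups overlapped in covered bases, also over the whole domain (16.3 and 51.6% in the HP1b knockdown, 46.3 and 11.9% in wild type). The others were a domain of chromosome 5 (chr5:178995353-179001369, 3.05 ± 0.22) and another of chromosome 8 (chr8:141859033-141869118, 3.84 ± 0.32). Over the whole domain the chromosome 5 groups overlapped, with 9.46 and 21.4% covered in the HP1b knockdown and 19.3 and 24.2% in wild type, and the chromosome 8 domain had 25.96 and 23.6% in the HP1b knockdown and 10.2 and 6.27% in wild type. The 5 strongest falls, among them domains in CEP128, a centriole gene, and ZRANB3, a DNA translocase gene, had no HP1a peak in the window in the HP1b knockdown and between 3.31 and 5.86% covered in wild type, and no fold is given for them. Without either HP1a library of the HP1b knockdown none of these 5 passed the threshold (limma's adjusted p = 0.0667 and 0.0672). With no scaling for total coverage none of the 5 rises passed it, at log2 differences of 0.17 to 1.30.

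Whether HP1b changed when HP1a was knocked down was asked in the 73 domains built from HP1a lists alone. Nearly all wide HP1a peaks came from wild type (46 and 37, against 1 and 2 in the HP1b knockdown). The choice may thus favour wild type and is not independent of genotype in these domains. HP1b covered less of them in the HP1a knockdown, 49.4 and 52.3% against 55.6 and 66.0% in wild type, a difference of -9.97 percentage points (50.8 ± 2.05% and 60.8 ± 7.38%, SD, n = 2 each; exact permutation p = 0.333, two-sided). Relative to autosomal coverage the groups overlapped, with ratios of 12.8 and 9.62 in the HP1a knockdown and 10.7 and 12.8 in wild type (exact permutation p = 0.667). With peaks of −log10 q of at least 2 the covered share differed by -3.21 points (exact permutation p = 1.0), and without chromosomes 1, 5, 8 and 20 by -11.1 points with overlapping groups (exact permutation p = 0.667). The share of all HP1b-covered bases differed by -0.00868 points, by -0.640 points at that stricter q and by -0.0560 points with equal peak numbers, and in the last 2 cases the groups did not overlap (exact permutation p = 0.333). The 14 of these domains over zinc finger genes were covered to 92.7 and 86.7% in the HP1a knockdown and to 93.4 and 96.4% in wild type, and the 59 others to 38.7 and 43.8% and to 46.3 and 58.5%, in the same order. The limma fit over 163086 windows called none in either direction (0.0%), and 30865 had an unadjusted p under 0.05. Of the 69 domains fitted, 14 had an unadjusted p under 0.05, and their median log2 difference was -0.15, beside -0.12 in all windows.

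The strongest falls, none past the threshold, were on chromosome 1. The domain in CNIH3 (chr1:224628691-224632985), a gene of AMPA receptor auxiliary subunits, had no HP1b peak in its window in the HP1a knockdown and 38.4 and 33.8% covered in wild type. Over the whole CNIH3 domain HP1b covered 12.2 and 0% in the HP1a knockdown and 48.9 and 35.4% in wild type. The window of the domain in SLC26A9 (chr1:205940358-205945285), an anion transporter gene, had no HP1b peak in the HP1a knockdown and 17.6 and 20.8% covered in wild type (limma's adjusted p = 0.245 for each). Both windows passed the filter only through wild type, so a call of either is no support for a fall, and this holds for CNIH3 also where leaving out HP1b replicate 1 or 2 of the HP1a knockdown brought it past the threshold (limma's adjusted p = 0.00352 and 0.0246). NMNAT2, a gene of axonal NAD synthesis, had no HP1b peak in its window in the HP1a knockdown and 14.8 and 11.2% in wild type. The NMNAT2 domain itself (chr1:183343030-183347288) had no HP1b peak in any HP1b library, so these bases lay elsewhere in the window. This window too passed the filter only through wild type. The other 2 falls were of chromosome 1 domains without a protein-coding gene. The strongest rises were smaller: a chromosome 8 domain (chr8:142130728-142135018) had 59.8 and 100% of its window covered by HP1b in the HP1a knockdown and 40.5 and 41.5% in wild type, a log2 difference of 1.05 ± 0.21 with limma's adjusted p = 0.245.

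HP1b was set against HP1a in wild type in the 1873 domains built from knockdown lists, nearly all of them from HP1b ChIP, so that the choice of domains is not independent of the antibody. The wild-type libraries also enter the comparisons above. HP1b covered 36.03 and 37.4% of these domains and HP1a 15.2 and 14.3% (36.7 ± 0.996% and 14.8 ± 0.573%, SD, n = 2 each; exact permutation p = 0.333, two-sided). With peaks of −log10 q of at least 2 the difference was 3.68 points and the groups overlapped (exact permutation p = 0.667). Relative to the autosomal coverage of each antibody the groups overlapped, with ratios of 6.96 and 7.24 for HP1b and 6.54 and 7.19 for HP1a (exact permutation p = 0.667), and HP1b covered at least 50% of 28.0 and 29.8% of the domains, against 5.13 and 5.39% for HP1a. In the 171 domains over zinc finger genes the ratios were 11.01 and 11.5 for HP1b and 12.0 and 12.8 for HP1a (exact permutation p = 0.333).

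The limma fit of HP1b against HP1a over 150771 windows called none (0.0% in each direction), with 29172 at an unadjusted p under 0.05, and 259 of the 1807 domains fitted were at that level. The median log2 difference was 0.50 in domains and 0.24 in all windows. Among the strongest differences, the domain in ZNF836 (chr19:52152009-52156491) had 81.2 and 77.7% of its window covered by HP1b and 18.4 and 13.6% by HP1a, a log2 difference of 1.01 ± 0.20. The domain in ZKSCAN7 (chr3:44572559-44576947) had 35.5 and 27.4% covered by HP1b and no HP1a peak, as had domains of chromosomes 4, 6 and 15 without a protein-coding gene; these windows passed the filter only through HP1b. In the other direction the ZNF678 domain had 85.6 and 100% of its window covered by HP1b and 86.1 and 90.8% by HP1a, a log2 difference of -1.18 ± 0.14 relative to total coverage, and OLFML2B, a gene of an extracellular matrix protein, had 31.6 and 40.1% by HP1b and 57.0 and 45.1% by HP1a. The other 3 lay on chromosomes 22, 8 and 1 outside protein-coding genes, and none of the 10 passed the threshold (limma's adjusted p = 0.21 for each). Without wild-type HP1a replicate 1 or 2, 16 and 57 domains were called higher for HP1b and 4 and 3 lower.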

How the data were processed

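ChIP-seq of HP1a and HP1b in MCF10A was analysed from 8 broad peak lists on hg38. Per the submitters' processing notes, Trimmomatic, Bowtie2, SAMtools and MACS3 were used; the sources used here do not give settings, the use of an input or the handling of reads with several matches. Per the deposited columns, each peak has start and end positions, a score, a fold enrichment ratio, and −log10 p and q values. The authors' −log10 q was used only to filter peaks. Their −log10 p ranked peaks where peak numbers were made equal, and the score was not used. No deposited value gives read depth, so precision rests on the 2 libraries per group.

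Wide peaks (at least 4000 bases, 22 autosomes) were merged where they overlapped, and each domain's bases under any listed peak were counted with Python 3.11.15. Comparisons used domains built from other lists than those compared, exact permutation tests over libraries and limma 3.58.1 (R 4.3.3) over 10 kb windows in which 2 or more of the 4 libraries had a peak, on log2 of covered bases per Mb of covered bases plus a pseudocount at the 10th percentile of values above 0, with Benjamini-Hochberg adjustment over all windows. A domain took the window of its midpoint. The script was tested on simulated data, modelled on windows with a peak in all 4 libraries. Windows without any peak in a group were not part of that test. Text names the 10 widest domains, the 10 wide in the most libraries, the 15 genes with the most domain bases and, per comparison, the 5 domains with the lowest p in each direction; PKP1, GSTM1, SNORD115, MIR domains and segments were picked after their values were seen. Members, gene lists and tests were chosen with earlier results of these data known. Replicate numbers did not pair libraries. Gene names and sequences came from RefSeq (GRCh38.p14). Alternatives covered width, q, peak number, scaling, pseudocount, filter, window size, chromosomes and left-out libraries. Sex chromosomes and contigs were left out.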

Additional observations from a re-analysis of the deposited data

Results flagged for a closer look

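The share of peaks that were wide moved in opposite directions in the 2 knockdowns. HP1a had 0.0821 wide peaks per 1000 listed peaks in the HP1b knockdown and 0.350 in wild type, and each knockdown library was below each wild-type library. HP1b had 5.93 in the HP1a knockdown and 2.07 in wild type, and each knockdown library was above each wild-type library. The difference between these effects was not tested, the antibodies differ as well as the knockdowns, and the widths are the values that chose the domains.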

How the results depend on the processing

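With 3000 or 6000 bases as the bound, 6258 and 561 domains were formed in place of 2410, 1230 and 171 protein-coding genes were met in place of 546, and 72 zinc finger genes at 6000 in place of 169. With peaks of −log10 q of at least 2, these were 752 domains, 203 genes and 75 zinc finger genes. Leaving out a library gave 1432 to 2410 domains, 403 to 546 genes and 144 to 169 zinc finger genes. The ratio of wide peaks of the HP1b knockdown over wild type was 0.0361 for HP1a, 0 at the stricter q and without chromosomes 1, 5, 8 and 20, and 0.0241 to 0.0482 without a library. The ratio of the HP1a knockdown over wild type was 2.34 for HP1b, 5.80 at the stricter q and 1.69 to 3.0 without a library.

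The HP1a difference in covered share (-10.3 percentage points) reversed to 1.75 with equal numbers of peaks in all libraries and was -15.6 to -9.25 without a library, and the share of domains met (-28.5 points) reversed to 16.2. The 171 HP1a domains called higher and 353 lower became 305 and 1081 at 3000 bases, 58 and 52 at 6000, 0 and 63 at the stricter q, 87 and 135 with 4 times the pseudocount, 416 and 178 in 50 kb windows, and none with equal peak numbers (0 and 0) or no filter (0 and 0). Higher calls numbered 95 without the 4 chromosomes, 39 with no scaling and 333 with all 8 libraries fitted together. Without a library they were 81 to 389 higher and 0 to 296 lower, and the share of covered bases (5.93 points) was 2.73 to 6.49, beside 1.35 with equal peak numbers, 0.232 at the stricter q (overlapping groups, exact permutation p = 0.667) and 2.91 at 6000 bases. The median log2 difference of 0.25 was -0.12 at 3000 bases, -2.65 at the stricter q, -1.30 with no scaling, and -0.27 (without HP1b replicate 2 of the HP1a knockdown) to 0.89 (without HP1a replicate 1 of the HP1b knockdown). In 50 kb windows the chromosome 19 and 17 falls turned to 0.041 and 1.41.

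For HP1b, the covered share differed by -15.2 to -4.75 points without a library and the share of all covered bases (-0.00868 points) by -0.0330 to 0.0156, reversed at 0.00245, 0.0156 and 0.00707, beside -0.640 at the stricter q and -0.0560 with equal peak numbers. The covered share was -3.21 points at the stricter q, with overlapping groups. Up to 4 domains were called lower and 0 higher without a library, 1 higher and 3 lower in 50 kb windows, and 1 lower with all 8 libraries. At the stricter q the share met was 3.33 points and the chromosome 1 rise -0.75; the median was -0.23 without HP1b replicate 1 and 0.015 without HP1b replicate 2 of the HP1a knockdown.

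For HP1b against HP1a in wild type, the share of covered bases (0.0884 points) was -0.0372 at 6000 bases and -0.0406 to 0.214 without a library, reversed at -0.0375 and -0.0406, and the covered share (21.98 points) was 20.4 to 26.1, beside 3.68 at the stricter q and 13.7 with equal peak numbers. The share of covered bases was 1.25 with equal peak numbers. Without a library 0 to 57 domains were called higher and 0 to 4 lower, and 5 higher with all 8 libraries. At the stricter q the share met was -0.505 points, the median -0.00136, the chromosome 8 domain 5.56, ZNF678 6.12 and ZNF836 -0.14. With no scaling the chromosome 22, 8 and 1 domains and ZNF678 turned to 0.23, 0.18, 0.35 and 0.064. The cause of these changes was not tested.

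Replicate numbers did not pair libraries (correlations of deviations 0.011, 0.032 and -0.00024). With the replicate block 127 HP1a domains were called higher and 125 lower, none for HP1b, and 10 lower for HP1b against HP1a. Leaving out the 2 widest domains, chosen after seeing the data, changed no direction of the 3 coverage measures, but the HP1b groups then overlapped in the share of domains met (-6.34 points, exact permutation p = 0.667); calls were not recomputed. Read depth is unknown and limits every statement on missing peaks.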
